A study of Homo sapiens with 4 samples.

Results

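The genes described here are 41 named components of the homologous recombination, Fanconi anaemia and replication checkpoint pathways, chosen by name among 27940 gene symbols of the deposited tables. They were read in 3 lists: 11 Fanconi genes, 21 recombination genes and 9 checkpoint genes. All were present in each of the 4 tables. The cells are U87, an established human glioma line, grown in medium with fetal bovine serum and infected with lentivirus. The control libraries, called shNC (n = 2), came from cells given the empty FUGW-H1 vector, which the series' design text names H1-RFP (WT). The shPTPRN3 libraries (n = 2) came from cells given 1 hairpin that targets PTPRN, which encodes a phosphatase-like membrane protein of secretory vesicles. The labels do not say whether the infected cells were pools or clones. The design text speaks of biological replicates without saying what separated them, so p-values measure only how these libraries vary, and that variation may be technical in part.

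Homologous recombination repairs broken chromosomes and stalled replication forks by copying the sister chromatid. Broken ends are first trimmed to single strands, mediators that include BRCA1, PALB2 and BRCA2 prepare the strands for pairing with the sister, and the joined molecules are later separated. The Fanconi pathway uses a multi-subunit ubiquitin ligase to mark FANCD2 and FANCI where a crosslink blocks a fork, and then hands the break to recombination. The replication checkpoint senses exposed single-stranded DNA through ATR and passes the signal to the kinase CHEK1, while ATM and CHEK2 form the branch that answers double-strand breaks. Many of these genes are transcribed mainly in dividing cells, from promoters that E2F factors bind.

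Promoters of members are shown first, and some carry an element that E2F factors can bind. The part of this element in the levels of these genes was not tested. RefSeq promoter windows (GRCh38.p14, 250 bases before to 50 bases after the start site) were matched for 36 of the 41 genes. The start site lay within 500 bases of the gene start in the deposited tables for 33 of these 36, and farther away for BRCA1, CHEK1 and TIPIN. An E2F-type element was searched as TTTCCCGC, TTTCGCGC, TTTGCCGC or TTTGGCGC on both strands. It was found in 7 of the 36 windows, or 19.4%, against 5.76% of 8963 windows of tested genes and 3.33% of all 27305 windows. The 7 genes were CLSPN, EXO1, FANCA, FANCC, FANCD2, TOPBP1 and XRCC2. The stretch from 100 bases before the start site to 30 bases from it is printed for the 6 genes whose element lies in that stretch, with the element in capitals:
CLSPN (chr1:35769949-35770078, minus strand): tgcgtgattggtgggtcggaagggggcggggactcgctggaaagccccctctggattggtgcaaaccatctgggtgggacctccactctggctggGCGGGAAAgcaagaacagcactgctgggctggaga
EXO1 (chr1:241848104-241848233, plus strand): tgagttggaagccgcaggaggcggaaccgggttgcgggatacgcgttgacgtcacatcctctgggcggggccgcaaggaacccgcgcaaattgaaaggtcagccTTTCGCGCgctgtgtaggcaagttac
FANCD2 (chr3:10026337-10026466, plus strand): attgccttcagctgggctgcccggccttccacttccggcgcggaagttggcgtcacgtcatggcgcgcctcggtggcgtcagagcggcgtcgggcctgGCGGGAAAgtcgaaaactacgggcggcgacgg
TOPBP1 (chr3:133661912-133662041, minus strand): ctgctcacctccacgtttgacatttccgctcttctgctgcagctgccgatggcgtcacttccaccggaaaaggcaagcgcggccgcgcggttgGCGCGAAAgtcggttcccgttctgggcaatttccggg
XRCC2 (chr7:152676112-152676241, minus strand): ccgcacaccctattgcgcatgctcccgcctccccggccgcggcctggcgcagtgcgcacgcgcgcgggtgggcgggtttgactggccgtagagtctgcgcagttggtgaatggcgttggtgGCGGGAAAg
FANCC (chr9:95317680-95317809, minus strand): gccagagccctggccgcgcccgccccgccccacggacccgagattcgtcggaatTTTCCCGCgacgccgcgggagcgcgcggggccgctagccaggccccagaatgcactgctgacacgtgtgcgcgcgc

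Positions count the start site as base 0, with negative numbers upstream. The element began at base -5 in CLSPN, 4 in EXO1, -2 in FANCD2, -7 in TOPBP1 and 21 in XRCC2. FANCC held 2 elements, which began at bases -172 and -46, and that of FANCA began at -172. Of the 29 members with a window but no element, 17 had both shPTPRN3 values below both shNC values, against 23.1% of all genes tested. The windows of these 17 are not printed. ATM and CHEK2, chosen with the values known, are kinase genes whose levels in the groups overlapped. The same stretch of each held no such element in these letters:
ATM (chr11:108222967-108223096, plus strand): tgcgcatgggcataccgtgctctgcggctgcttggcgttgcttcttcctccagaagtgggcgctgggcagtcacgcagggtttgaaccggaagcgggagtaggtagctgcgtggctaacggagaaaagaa
CHEK2 (chr22:28741791-28741920, minus strand): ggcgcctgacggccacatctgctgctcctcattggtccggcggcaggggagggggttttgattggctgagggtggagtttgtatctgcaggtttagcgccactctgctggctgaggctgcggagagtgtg

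A shorter element of cell-cycle promoters, the CHR, was searched as TTTGAA or TTCGAA on both strands and was found in 4 of the 36 windows, or 11.1%, the same share as among tested genes (11.1%). The NF-Y box CCAAT, on either strand, was found in 18 windows (50%), against 37.0% of the windows of tested genes. No searched word contains another. A match describes letters in the window and not a bound site.

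The target itself, PTPRN, was measured at 27.6 and 19.8 scaled FPKM in the shNC libraries against 4.96 and 3.62 under the hairpin. Scaled FPKM are the deposited fragments normalised to transcript length and sequencing depth, divided by 1 factor per library. By limma the log2 fold change on log2(scaled FPKM + 1) was -2.22 (SE 0.34, adjusted p = 0.0594 over 11394 genes), which missed the threshold of 0.05. The widths of the deposited intervals gave an estimated depth of 13.8 to 34.1 M fragments per library. Of 9 markers expected in a glioma line, VIM, CD44, FN1, TNC, CHI3L1 and NES were measured above the filter, while GFAP was listed at 0 in every library and SOX2 and S100B reached at most 0.2455. Summed markers of other cell types reached at most 1.87 scaled FPKM for 4 epithelial, 0.705 for 3 immune and 0.907 for 3 endothelial genes. The 3 neuronal markers summed to 8.21 and 7.94 in shNC and to 30.8 and 12.1 in shPTPRN3, most of it SNAP25 (7.146 and 5.95 in shNC, 28.5 and 10.2 in shPTPRN3), and their part in any result was not tested.

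Levels of the recombination, Fanconi and checkpoint genes were lower in the shPTPRN3 libraries for most members and higher for none. In 28 of the 41 genes the higher shPTPRN3 value was under the lower shNC value, in 8 of 11 Fanconi, 14 of 21 recombination and 6 of 9 checkpoint genes. The groups overlapped for the other 13 (FANCE, FANCL, FANCM, BRCA2, RAD51C, RAD51D, RBBP8, RAD50, NBN, RMI1, ATM, ATR and CHEK2). The same order, both shPTPRN3 values below both shNC values, held for 18.3% of the 19733 symbols above 0 in any library and for 23.1% of the genes tested, while the opposite order held for 21.5% of the latter. Among the 26 members with a deposited mean of at least 1 FPKM in both groups, it held for 18, against 21.9% of all genes with a scaled mean of at least 1 in both. The deposited confidence intervals, which do not include the variation between libraries, were separate as well for 24 of the 41 genes, against 11.9% of 10771 tested genes with a single row.

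For the 38 members never listed at 0, the share of the shNC mean that was measured in shPTPRN3 ran from 9.42% (CLSPN) to 114% (ATM), with a median of 48.3%, and it was under 25% for 13 genes. These are RNA levels of whole cultures, in which fewer cells in the phases that express a gene and less RNA per cell cannot be told apart. Summed over a list, the Fanconi genes stood at 50.1% and 30.8% of the shNC mean in shPTPRN3 replicates 1 and 2, the recombination genes at 53.4% and 53.5%, and the checkpoint genes at 61.4% and 57.9%. For the same lists in order, shNC replicates 1 and 2 stood at 116% and 83.9%, 91.95% and 108%, and 89.0% and 111%. UBE2T alone made up 40.2 and 20.1 of the Fanconi sums of 97.1 and 70.2 scaled FPKM in shNC.

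**Figure D1:**
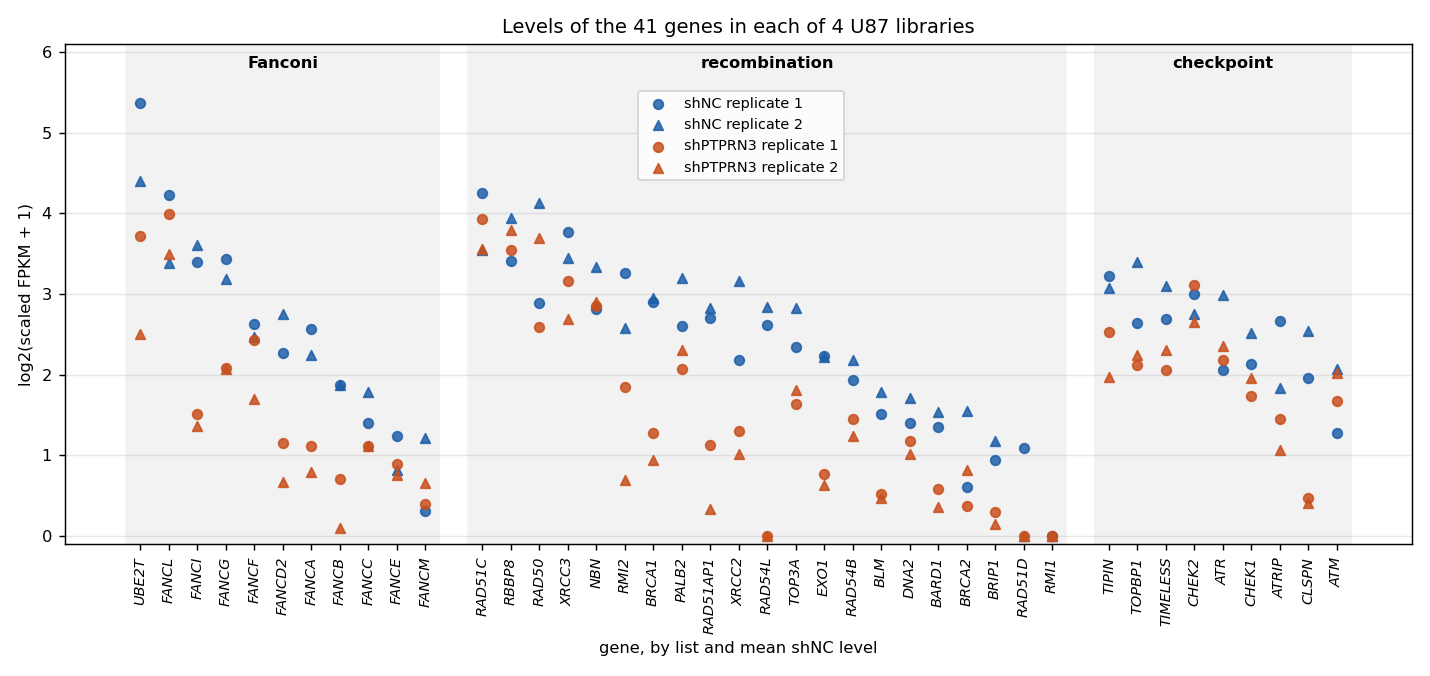
Level of each of the 41 genes, as log2(scaled FPKM + 1), in the 2 shNC libraries (blue) and the 2 shPTPRN3 libraries (orange), with circles for replicate 1 and triangles for replicate 2, grouped by list and ordered by the shNC mean. Both orange symbols lie below both blue symbols for 28 genes, and RAD54L, RAD51D and RMI1 include values listed at 0.

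The test across all genes, limma on log2(scaled FPKM + 1) with Benjamini-Hochberg adjustment, was run on 35 of the 41 members. FANCE, FANCM, BRCA2, BRIP1, RAD51D and RMI1 had a mean under 1 FPKM and were not tested. A further 9 genes (FANCA, FANCB, FANCD2, BARD1, RAD51AP1, RAD54L, BLM, EXO1 and CLSPN) passed this filter only through their shNC values, so the count and the medians over the tested members are descriptions. At an adjusted p under 0.05, 1 member, RAD54L, was called lower and 0 were called higher, against 0.342% of all genes tested called lower and 0.079% called higher. The fold change was below 0 for 33 of the 35, against 50.5% of all genes tested. At an unadjusted p under 0.05, 19 of the 35 were lower and 0 were higher, against 7.79% lower and 5.66% higher of all genes tested. The median log2 fold change was -1.46 over 9 Fanconi genes, -0.86 over 17 recombination genes and -0.71 over 9 checkpoint genes, against -0.01 over all genes tested. The recombination median includes RAD54L, and it was -0.79 over 16 genes in the fit without genes listed at 0. Of the 34 tested members never listed at 0, 13 lay below the 5th percentile of all genes tested (-1.13).

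RAD54L, a DNA translocase of strand pairing, is the called gene, and its value needs care. The gene lies on chromosome 1 from 46247688 to 46278473 (hg38). In shNC its scaled FPKM were 5.11 and 6.14, and it was listed at 0 in both shPTPRN3 libraries (limma, adjusted p = 0.0183). The deposited intervals there ended at 0.0368 and 0.0940 FPKM. RAD54L overlaps LRRC41 only from base 46278400 to 46278473. LRRC41 had 26.1 and 24.4 FPKM in shNC and 31.8 and 30.1 in shPTPRN3 as deposited. Overlap with another row is common, at 34.8% of the rows of genes averaging at least 1 FPKM. An exact 0 beside an abundant neighbour may still be an estimate that failed, which was not tested. No fold is therefore given for RAD54L. RAD51D, which works in a complex with XRCC2, was listed at 0 in 3 of the 4 libraries and at 1.13 scaled FPKM in shNC replicate 1, and it overlaps the read-through gene RAD51L3-RFFL. RMI1, a scaffold subunit of the complex that dissolves double Holliday junctions, was listed at 0 in all 4 libraries and overlaps HNRNPK, at 86.1 to 122 FPKM. Whether these genes were silent was not tested.

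When the 267 tested genes listed at 0 in any library were left out of the fit, RAD54L was no longer tested and 8 of 34 members were called lower by limma, against 1.59% of 11127 genes. They were FANCI, FANCD2, FANCA and FANCB of the Fanconi list, BRCA1, RAD51AP1 and EXO1 of the recombination list and CLSPN of the checkpoint list, with adjusted p from 0.0270 to 0.0469. All of them but FANCI and BRCA1 passed the filter only through their shNC values, so this count is a description. The 8 calls depended on scaling and on 1 library. None was made on FPKM as deposited or on TPM. By limma, 19 and 15 members were lower at an unadjusted p under 0.05 there, against 7.81% and 5.38% of all genes. Without shPTPRN3 replicate 2 most of the 8 were no longer called. In fits that leave out a library, 1 group is a lone library, assumed to vary like the other. With genes listed at 0 left out, the spread of each gene was there set by its mean level alone. No conclusion is therefore drawn from counts of calls in the fits that leave out a library.

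**Figure D2:**
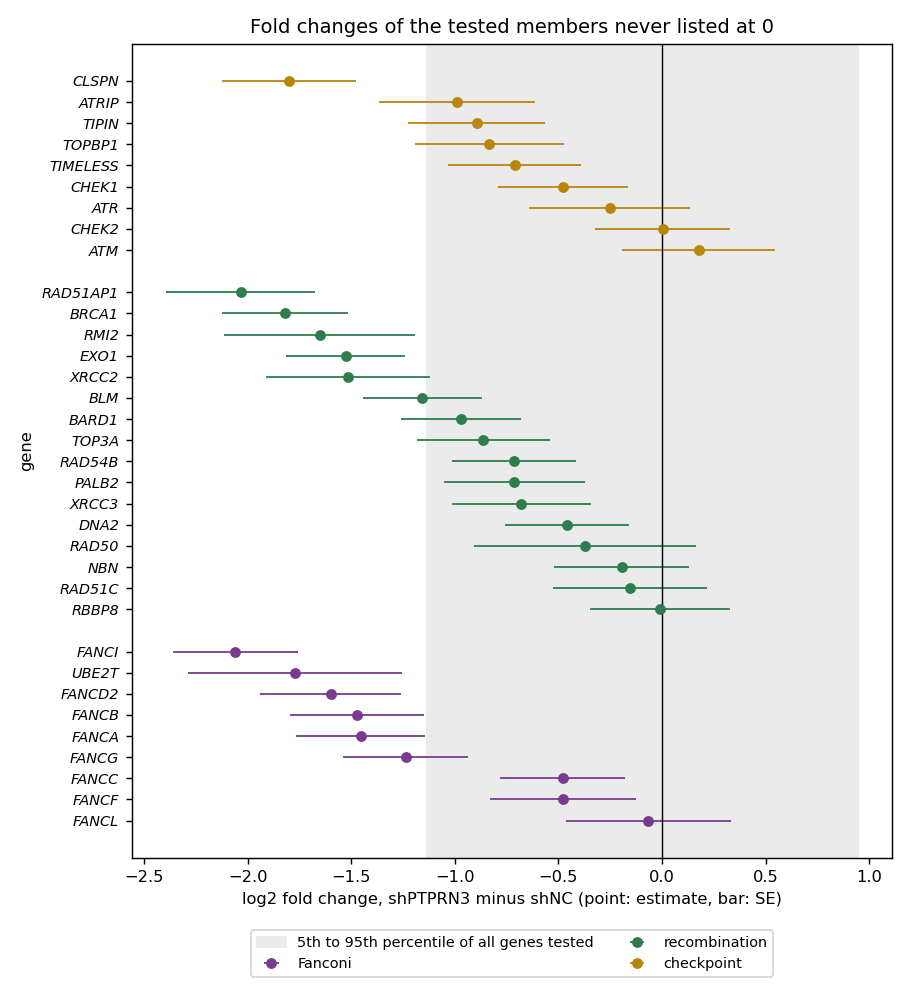
Log2 fold change of shPTPRN3 against shNC for the 34 tested members never listed at 0, with the standard error from limma as the bar and the 5th to 95th percentile of all genes tested in grey. The values run from -2.06 for FANCI to 0.18 for ATM, and 13 genes lie below the grey band.

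In the Fanconi list the lowest share of the shNC mean was that of FANCB (13.1%), followed by FANCI (16.6%), FANCD2 (18.96%), FANCA (21.9%) and UBE2T (27.9%). The order of the fold changes depended on the pseudocount, with FANCI most negative at 1 and FANCB (-2.97) at 0.1. FANCI (chromosome 15, 89243963 to 89317259), which is ubiquitinated with FANCD2 at a blocked fork, had 9.50 and 11.2 scaled FPKM in the shNC libraries against 1.85 and 1.58. As deposited, the lowest shNC interval began at 9.17 FPKM and the highest shPTPRN3 interval ended at 2.17. Its log2 fold change was -2.06 (SE 0.30, limma, adjusted p = 0.0552). FANCD2 had 3.82 and 5.76 in shNC and 1.22 and 0.591 in shPTPRN3, with a log2 fold change of -1.60 (adjusted p = 0.104). UBE2T, the E2 enzyme that supplies the ubiquitin, was the most abundant of the 41 genes in shNC. Its scaled FPKM were 40.2 and 20.1 there and 12.2 and 4.67 in shPTPRN3. The groups did not overlap, but replicate 2 was at 0.4999 and 0.384 of replicate 1, and the log2 fold change of -1.77 had an SE of 0.52 (limma, adjusted p = 0.205).

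The core ligase was not uniform. FANCA, a subunit of the core, had 4.93 and 3.76 scaled FPKM in the controls and 1.17 and 0.730 in shPTPRN3, and FANCB, another, had 2.67 in each shNC library and 0.630 and 0.0702 in shPTPRN3. FANCG, an adaptor of the same complex, had 9.83 and 8.14 in shNC and 3.26 and 3.19 in shPTPRN3 (log2 fold change -1.24, limma, adjusted p = 0.141). By contrast FANCL, the catalytic E3 subunit, had 17.7 and 9.49 in shNC and 14.9 and 10.3 in shPTPRN3, so its groups overlapped and 92.5% of the mean was measured. FANCC (1.65 and 2.44 against 1.17 and 1.16) and FANCF (5.17 and 4.52 against 4.37 and 2.26), further core subunits, did not overlap but had log2 fold changes of -0.48 each (limma, adjusted p = 0.523 and 0.602). For FANCF the deposited intervals of the groups overlapped. FANCE, which links the core to FANCD2, and FANCM, the translocase that brings the core to DNA, were under the filter. FANCE had 1.37 and 0.762 in shNC and 0.863 and 0.690 in shPTPRN3, and FANCM had 0.237 and 1.32 against 0.323 and 0.581. Both overlapped.

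Of the 5 genes that prepare DNA ends, 3 had overlapping groups. RBBP8, which starts end trimming with the complex of RAD50 and NBN, had 9.65 and 14.4 scaled FPKM in the control libraries and 10.6 and 12.9 in shPTPRN3. RAD50 had 6.42 and 16.5 in shNC and 5.02 and 11.9 in shPTPRN3, a difference between replicates larger than that between groups. NBN, another subunit of that complex, had 6.02 and 9.09 against 6.23 and 6.47. These 3 genes had log2 fold changes of -0.01, -0.37 and -0.20 (limma, adjusted p from 0.821 to 0.995). EXO1, an exonuclease that extends the trimming, had 3.69 and 3.67 in shNC and 0.707 and 0.547 in shPTPRN3, close agreement within each group and 17.03% of the shNC mean. Its log2 fold change was -1.53 (SE 0.29, limma, adjusted p = 0.0787). DNA2, the other long-range nuclease, had 1.64 and 2.29 against 1.27 and 1.02, and its deposited intervals overlapped between groups.

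Among the mediators, the BRCA1 partners had lower shares of the shNC mean than PALB2. BRCA1 (chromosome 17, 43044295 to 43125364), a ubiquitin ligase and scaffold of recombination, had 6.49 and 6.75 scaled FPKM in the control libraries and 1.42 and 0.919 in shPTPRN3. Both shPTPRN3 values lay far under the shNC pair, which agreed closely. The log2 fold change was -1.82 (SE 0.30, limma, adjusted p = 0.0663). BARD1, its obligate partner, had 1.55 and 1.92 in shNC and 0.499 and 0.285 in shPTPRN3, which is 22.7% of the shNC mean against 17.7% for BRCA1. BRIP1, a helicase that binds BRCA1, was under the filter with 0.929 and 1.27 against 0.226 and 0.110, and its groups and intervals were separate. PALB2, which joins BRCA1 to BRCA2, had 5.07 and 8.16 against 3.19 and 3.93, or 53.8% of the mean. BRCA2, a mediator of strand pairing, was under the filter and overlapped, with 0.524 and 1.93 in shNC and 0.3003 and 0.764 in shPTPRN3. For BRCA2 replicate 2 was 3.68 and 2.54 times replicate 1 in the respective groups.

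Genes of strand pairing covered a wide range of values. RAD51AP1, which helps capture the partner duplex, had 5.53 and 6.101 scaled FPKM in the shNC libraries and 1.19 and 0.264 in shPTPRN3, or 12.5% of the mean, with a log2 fold change of -2.04 (SE 0.36, limma, adjusted p = 0.0731). XRCC2, a partner of RAD51D, had 3.54 and 7.93 in shNC and 1.46 and 1.02 in shPTPRN3 (log2 fold change -1.52, limma, adjusted p = 0.171). XRCC3, which pairs with RAD51C, had 12.6 and 9.87 against 7.94 and 5.44, with overlapping deposited intervals. RAD51C itself had 18.1 and 10.6 in shNC and 14.3 and 10.7 in shPTPRN3 and overlapped. RAD54B, a second translocase, had 2.83 and 3.56 against 1.74 and 1.37, or 48.5% of the mean.

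The dissolution complex, which separates joined chromatids without exchange, had the lowest shares of the shNC mean in its helicase and small subunit. BLM, the helicase, had 1.86 and 2.45 scaled FPKM in control libraries and 0.432 and 0.387 in shPTPRN3 (log2 fold change -1.16, limma, adjusted p = 0.152). RMI2, a small stabilising subunit, had 8.62 and 5.00 in shNC and 2.601 and 0.619 in shPTPRN3 (log2 fold change -1.65, SE 0.46, limma, adjusted p = 0.190). TOP3A, the topoisomerase, had 4.08 and 6.11 against 2.10 and 2.52, or 45.4% of the mean. TOP3A also has a row on an alternate sequence, listed at 0 throughout.

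In the checkpoint list the lowest share of the shNC mean belonged to the mediator. CLSPN (chromosome 1, 35720213 to 35769978) encodes Claspin, the adaptor that lets ATR phosphorylate CHEK1. It had 2.88 and 4.81 scaled FPKM in the shNC libraries and 0.389 and 0.335 under the hairpin, which was the smallest share of the shNC mean (9.42%) among members never listed at 0. The log2 fold change was -1.80 (SE 0.32, limma, adjusted p = 0.0762). Both shPTPRN3 values were below both shNC values and close to each other. The kinase ATR had 3.15 and 6.96 in shNC and 3.53 and 4.14 in shPTPRN3, so that the shNC libraries enclosed the shPTPRN3 libraries. Its partner ATRIP, which binds coated single strands, had 5.33 and 2.58 against 1.74 and 1.09 (log2 fold change -0.99, limma, adjusted p = 0.323). ATRIP overlaps TREX1, at 35.8 and 19.03 FPKM in shNC and 12.9 and 9.07 in shPTPRN3 as deposited, and reads of the pair may not have been told apart.

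TOPBP1, the activator of ATR, had 5.22 and 9.57 scaled FPKM in control libraries and 3.37 and 3.73 in shPTPRN3, or 48.0% of the mean. TIMELESS and TIPIN travel with the fork and hold it together when it stalls. TIMELESS had 5.44 and 7.57 in shNC and 3.15 and 3.96 in shPTPRN3, and TIPIN had 8.32 and 7.42 against 4.76 and 2.94, which are 54.7% and 48.9% of the shNC means. The effector CHEK1 had 3.39 and 4.73 in shNC and 2.33 and 2.88 in shPTPRN3, groups that were separate while their deposited intervals overlapped (log2 fold change -0.48, limma, adjusted p = 0.545). On the double-strand-break branch, ATM had 1.42 and 3.19 in shNC and 2.201 and 3.05 in shPTPRN3, and CHEK2 had 7.002 and 5.77 against 7.63 and 5.30. Both overlapped, with log2 fold changes of 0.18 (SE 0.37) and 0.00 (SE 0.33). ATM and CHEK2 were the only tested members with a fold change above 0, and both signs turned under other settings.

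**Figure D3:**
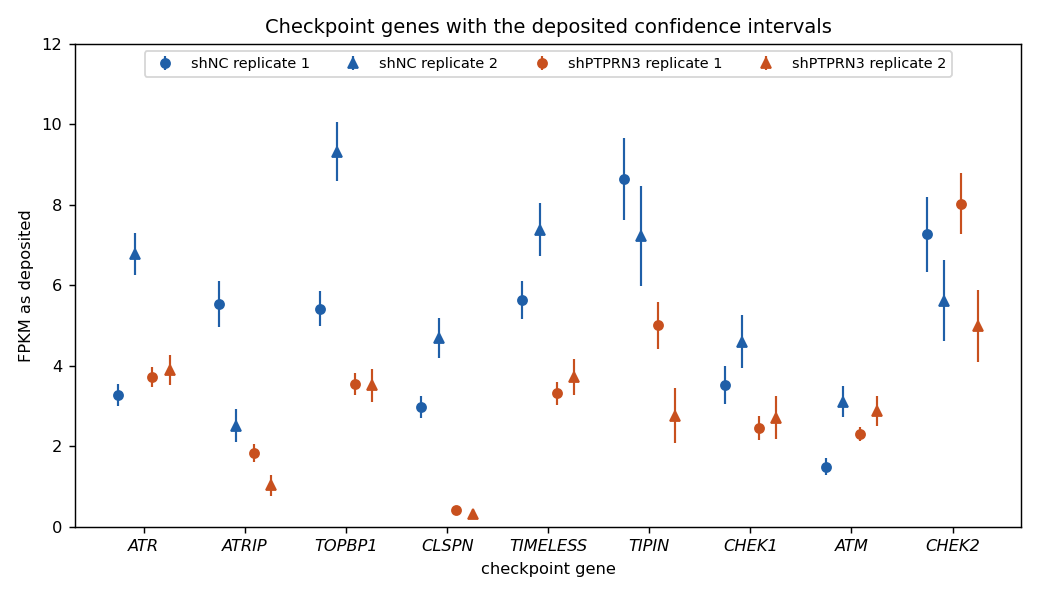
FPKM as deposited for the 9 checkpoint genes in each library, with the deposited confidence interval as the bar, shNC in blue and shPTPRN3 in orange. The intervals of the groups are separate for ATRIP, TOPBP1, CLSPN, TIMELESS and TIPIN and overlap for ATR, CHEK1, ATM and CHEK2.

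The gap between replicates varied with transcript length. Across the 38 members never listed at 0, the difference between replicate 2 and replicate 1 correlated with the longest GENCODE 29 transcript (Spearman rho 0.675 in shNC and 0.650 in shPTPRN3), as it did over 11013 tested genes (0.688 and 0.413). These correlations are across genes that share their libraries and are descriptions. The 6 longest of these 38 members were ATM, BRCA2, RAD50, ATR, BRCA1 and FANCM, and replicate 2 was higher for all 6 in shNC and for 5 in shPTPRN3. UBE2T, the shortest at 908 bases, was lower in replicate 2 at ratios of 0.4999 and 0.384. Of those 6 long genes, 5 are among the 13 whose groups overlapped, and the part of transcript length in these overlaps was not tested. With the trend on length removed in each library, 5 members were called lower by limma (CLSPN, EXO1, FANCI, RAD51AP1 and RAD54L), against 1.28% of 11013 genes. All of them but FANCI passed the filter only through their shNC values, so this count is a description.

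Differences were also read within each replicate number. The shPTPRN3 value was below the shNC value in both numbered pairs for 31 of the 41 genes, against 27.3% of the 19733 symbols above 0 in any library. The Fanconi median was -1.17 between the libraries numbered 1 and -1.46 between those numbered 2, the recombination median -0.71 and -1.01, and the checkpoint median -0.51 and -0.77. The recombination medians include RAD54L.

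**Figure D4:**
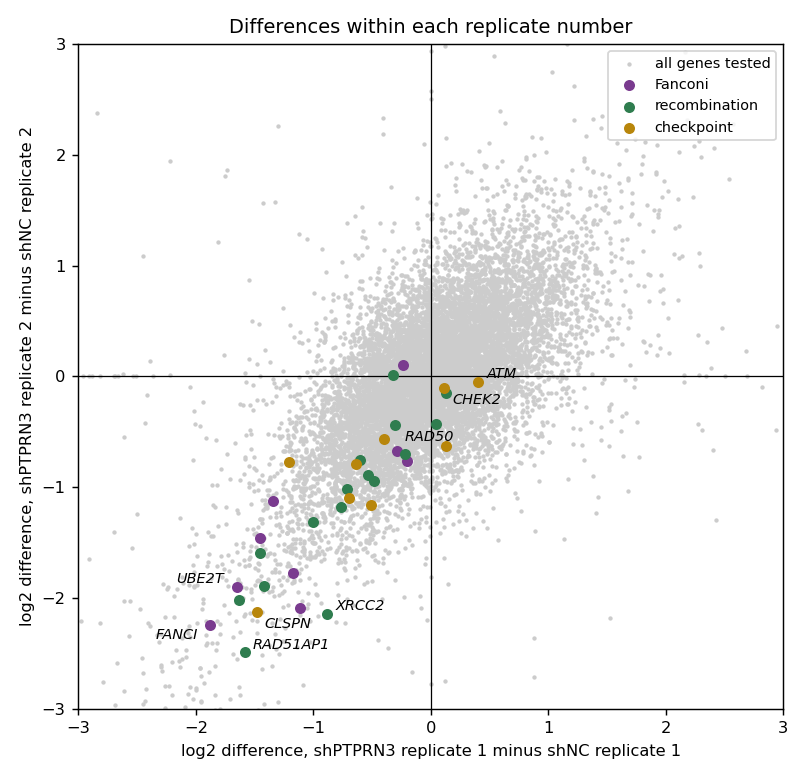
Log2 difference between shPTPRN3 and shNC for the libraries numbered 1 (horizontal) and numbered 2 (vertical), for all genes tested (grey) and for the 34 tested members never listed at 0 (coloured by list). Most members lie in the lower left part. The list medians are -1.17, -0.71 and -0.51 on the horizontal axis and -1.46, -1.01 and -0.77 on the vertical axis. The recombination medians include RAD54L, which is not drawn.

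The members with an E2F-type element were read against those without. All 7 had shPTPRN3 values below their shNC values without overlap, with log2 fold changes from -1.80 (CLSPN) to -0.48 (FANCC) and a median of -1.52. Among the 29 members with a window but no element, 17 had separate groups, and the median over the 23 that were tested was -0.71. Separate groups with the lower values in shPTPRN3 were seen for 23.1% of all genes tested. Of the 7 genes with the element, FANCA, FANCD2, EXO1 and CLSPN passed the filter only through their shNC values. So did FANCB, BARD1, RAD51AP1, RAD54L and BLM of the 23 without it, so both medians are descriptions. The median of the 23 includes RAD54L, for which no fold is given. RAD51AP1, BRCA1 and UBE2T, with log2 fold changes of -2.04, -1.82 and -1.77, were among those without it. For BRCA1 the start site of the window lay more than 500 bases from the gene start in the deposited tables. FANCI had no window. The windows were searched with the fold changes known, and no test was made.

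**Figure D5:**
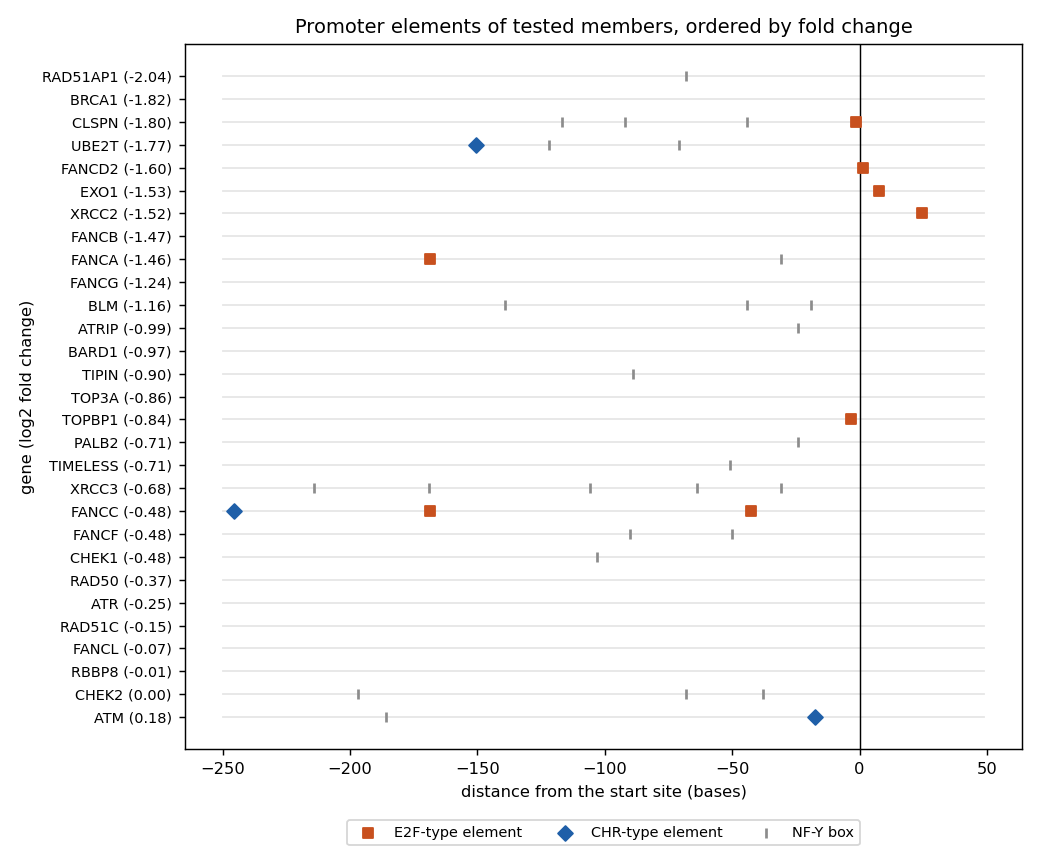
Positions of E2F-type elements (orange squares), CHR-type elements (blue diamonds) and NF-Y boxes (grey bars) in the promoter windows of tested members never listed at 0, by distance from the start site in bases, with genes ordered by log2 fold change. The E2F-type elements of CLSPN, FANCD2, EXO1, TOPBP1 and XRCC2 begin between bases -7 and 21, and those of FANCA and FANCC begin at -172, with a second of FANCC at -46.

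Related genes of the same pathways that are not among the 41 were examined as a list of 35, of which 32 were tested. By limma 0 were called lower and 0 higher, and 8 were lower and 0 higher at an unadjusted p under 0.05, against 7.79% lower and 5.66% higher of all genes tested. Their median log2 fold change was -0.25. MRE11, the nuclease that works with RAD50 and NBN, had 1.43 and 2.04 scaled FPKM in control libraries and 0.803 and 0.984 in shPTPRN3. RPA1, the large subunit of the single-strand binding protein, had 13.4 and 14.4 against 11.5 and 10.6. HUS1, of the clamp that helps activate ATR, had 5.60 and 6.13 against 5.49 and 5.26, and WEE1, the kinase that restrains CDK1, had 5.28 and 5.05 against 3.53 and 3.60. These 4 had log2 fold changes from -0.52 to -0.11 and were not among the 8, so they do not stand for the list. Of the 32 tested, 14 had both shPTPRN3 values below both shNC values, against 23.1% of all genes tested. The opposite order held for 1 of the 32, against 21.5%. The alternative pathway of end joining was read through 13 genes, all tested, with 0 called in either direction and 0 at an unadjusted p under 0.05 by limma. Their median was -0.40, and the largest difference was that of PRKDC (13.4 and 34.8 against 10.2 and 10.8, log2 fold change -0.98).

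General markers of dividing cells were lower beside the members. All 12 genes of a proliferation list had both shPTPRN3 values below both shNC values, against 23.1% of all genes tested. Their summed level was 467 and 408 scaled FPKM in the controls and 114 and 75.1 in shPTPRN3, with a median log2 fold change of -2.39. By limma 2 of the 12 were called lower, against 0.342% of all genes tested. MKI67, the proliferation antigen, had 15.6 and 34.3 in shNC and 1.90 and 0.566 in shPTPRN3. CCNB1, the mitotic cyclin, had 76.4 and 50.8 against 13.9 and 4.07, and PCNA, the sliding clamp, had 80.4 and 49.6 against 30.4 and 25.5. CDKN1A, which restrains the cyclin-dependent kinases, had 142.3 and 89.2 in shNC and 609 and 918 in shPTPRN3 (limma, adjusted p = 0.0762). The part of these in the lower levels of the recombination, Fanconi and checkpoint genes was not tested.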

How the data were processed

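Per the labels' protocols, the kit for the 2 shNC and 2 shPTPRN3 libraries keeps mRNA strand. The submitters' processing notes list Cufflinks 2.2.1.2, STAR 2.6.0b-1 and FastQC 0.72, and the build hg38. Annotation and strand setting are not stated there, so overlapping genes may share reads. The deposited values are FPKM, each with its status and confidence bounds, in 33646 rows per library, per the file headers. Fragment counts are not in these columns. Depth came from how wide the intervals of long single-exon genes were.

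After dropping 651 rows not marked OK everywhere, rows were summed per symbol (27940 symbols; the 41 members have 42 rows). FPKM were divided by median-ratio factors (0.943 to 1.05, from 9988 genes). PTPRN and all genes averaging 1 FPKM or more entered limma 3.58.1 (R 4.3.3), fitted to log2(scaled FPKM + 1), with eBayes and a trend, two-sided, Benjamini-Hochberg adjusted over 11394 genes, at a threshold of 0.05. The pseudocount of 1 understates changes of low genes. Residual degrees of freedom were 2 and prior ones 4.94. An exact permutation test of 2 against 2 libraries cannot go below p = 0.333, two-sided, and was not used. The fit was also run on simulated independent libraries, with spreads drawn from the fit itself. That run could not test the shared difference between replicate numbers or the length trend.

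The members and lists were chosen with earlier results of these data known. Named genes were PTPRN, every member, the related genes MRE11, RPA1, HUS1 and WEE1 (1 further related gene of the rule is not reported here), the end-joining gene with the largest change, MKI67, CCNB1, PCNA, CDKN1A and the genes that overlap members listed at 0; ATRIP's partner TREX1, the marker SNAP25 and the promoter elements were added after values were seen. Promoters are from RefSeq (GRCh38.p14) and transcript lengths from GENCODE 29. Python 3.11.15, pandas 2.3.3, numpy 2.4.6 and matplotlib 3.10.9 were used. Other settings tried concerned the scaling, the pseudocount, both filters, eBayes, row handling, transcript length, genes listed at 0, single libraries and the replicate number.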

Additional observations from a re-analysis of the deposited data

How the results depend on the processing

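With 2 libraries a group and low levels (14 tested members average 5 FPKM or more), single calls depended on the setting, while the 3 list medians were below 0 in all 18 alternatives. The number of members called lower was 0 with no filter on low values and 0 at a mean of at least 5 FPKM. Lower at an unadjusted p under 0.05 by limma there were 17 (5.37% of all genes) and 4 of 14 (6.86% of all genes). The number called was 6 with robust eBayes, against 127 of 11394 genes, and 5 with the length trend removed, against 1.28% of genes. It was 8 with genes listed at 0 left out, against 1.59% of genes. With genes listed at 0 left out as well, in fits chosen after seeing the data, it was 0 for both unscaled FPKM and TPM, 6 after quantile normalization, and from 2 to 11 without each library, where leaving out shNC replicate 1 gave 10. These added fits have no share of all genes called beside them, so their counts of called members are descriptions. In the added fit with quantile normalization, 19 of 34 members were lower at an unadjusted p under 0.05 by limma, against 8.22% of all genes. Where a library was left out, 1 group is a lone library, and no conclusion is drawn from those counts. RAD54L missed the threshold with no filter (limma, adjusted p = 0.142).

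The Fanconi median moved to -1.77 on TPM, -1.35 with quantile normalization, -1.90 and -1.75 at pseudocounts of 0.1 and 0.5, -1.24 with no filter, and -1.62 to -1.17 without each library. The checkpoint median moved to -0.84 and -0.78 at those pseudocounts, and was -0.72 to -0.45 without each library. The recombination median was -0.28 at a mean of at least 5 FPKM.

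All genes called lower numbered 23 for unscaled FPKM, 20 for TPM, 16 at a pseudocount of 0.1, 0 with no filter, 5 at a mean of at least 5 FPKM, 19 without an eBayes trend, 127 with robust eBayes, 177 without genes listed at 0, 141 with the length trend removed and 21 to 144 without each library. Those called higher numbered 0 with no filter, 3 at 5 FPKM, 33 with robust eBayes, 42 without genes listed at 0, 47 with the length trend removed and 5 to 34 without each library. Of the related genes 1 was called lower without genes listed at 0 and 1 with the length trend removed. The log2 fold change of PTPRN was -2.22 in the main fit, -2.28 on TPM, -2.175 with quantile normalization and -2.435 at a pseudocount of 0.1. It ran from -2.44 to -1.99 without each library. PTPRN passed with robust eBayes (limma, adjusted p = 0.0363), without genes listed at 0 (0.0270) and with the length trend removed (0.0373). In other fits of all 4 libraries without the block, its adjusted p by limma ran up to 0.211.

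Signs turned for members near 0. Without each library, FANCL ran from -0.48 to 0.35, RBBP8 from -0.28 to 0.26, RAD51C from -0.51 to 0.20, RAD50 from -0.99 to 0.25, NBN from -0.46 to 0.066, ATM from -0.22 to 0.57, ATR from -0.72 to 0.22 and CHEK2 from -0.22 to 0.23. On TPM, FANCL was 0.023 and RBBP8 0.078. With the length trend removed, FANCL was 0.041, RBBP8 0.0074 and ATM -0.0096. For unscaled FPKM CHEK2 was -0.0078.

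The replicate numbers are shared between the groups, and the difference between libraries 1 and 2 correlated across genes between shNC and shPTPRN3 (r = 0.519), a hint from the data and not the design. With the replicate block, limma called 19 members and 9 related genes lower, 1212 genes lower and 956 higher, and PTPRN at -2.22 (adjusted p = 9.07e-07). The cause of these moves was not tested.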
